A study of Mus musculus with 12 samples.

Results

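Gng11, Tln1 and Tpm2 are 3 genes whose messengers are abundant in platelets, and their rows were followed by name among the 53546 gene symbols of each count file, so that 3 of 3 members were found and 3 of 3 passed the filter on low counts. The comparison was of RNA labelled as serum from mice with colorectal cancer and from normal mice, each with 6 labelled samples. The sample titles name serum, while the column names of the counts begin with Blood. The word serum below follows the titles, and which of these labels holds was not tested. The files of colorectal cancer replicates 5 and 6 differed in 0 rows and both carry the column name of replicate 6, so they were counted as 1 sample, replicate 6, which left 6 normal and 5 colorectal cancer libraries. The sources used here do not give the strain, age or sex of the mice, how the tumours arose or any treatment. Each sample is named a biological replicate, and the series text has the sera from different mice, so the spread below was read as spread between animals.

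Platelets are cell fragments without a nucleus that are shed by megakaryocytes, and they carry messengers made in those cells. They stick to injured vessel walls and to each other after receptors coupled to G proteins switch their integrins to an active shape, and their actin skeleton then drives spreading and contraction. Serum is the liquid left after clotting, a step in which platelets are activated. In bulk RNA of this kind, fewer platelets and less RNA per platelet cannot be told apart.

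Gng11 encodes a gamma subunit of heterotrimeric G proteins, which passes receptor signals on at the membrane and is, among blood cells, mostly a platelet gene. Tln1 encodes talin 1, the adaptor that binds integrin tails, activates integrins and ties them to actin; leukocytes use it as well. Tpm2 encodes beta-tropomyosin, a coiled coil that lies along actin filaments and is best known from muscle.

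The positions of the 3 rows were taken from GENCODE release M21 on mm10. Gng11 lies on chromosome 6 from 4003904 to 4008445 on the plus strand, with 919 exonic bases in 2 exons. Tln1 lies on chromosome 4 from 43531519 to 43562691 and Tpm2 from 43514711 to 43523765, both on the minus strand, with 9801 and 2909 exonic bases. Tpm2 and Tln1 are therefore next-door genes, while Gng11 is on another chromosome.

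The coding sequence of Gng11 is shown because both within-library ratios that passed a test hold this gene, and because it is short, at 222 bases and 74 codons with the stop. It runs from 4004316 to 4008160 on chromosome 6. The capitals mark the last 4 codons before the stop, which begin with the cysteine codon TGT and encode the box at which a lipid anchor is attached to the protein.
Gng11: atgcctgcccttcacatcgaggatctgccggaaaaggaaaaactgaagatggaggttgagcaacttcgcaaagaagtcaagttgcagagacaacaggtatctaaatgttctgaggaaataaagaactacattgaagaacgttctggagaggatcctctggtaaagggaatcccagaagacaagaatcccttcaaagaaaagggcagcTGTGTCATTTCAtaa

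Tropomyosin genes are close relatives, so the stretch of Tpm2 that holds its longest identical coding run with Tpm1 is shown. It lets a reader see how alike the 2 genes are there, and stretches with fewer differences were not searched for. It is the start of the coding sequence, chr4:43523295-43523354 on the minus strand for Tpm2 and chr9:67049073-67049132 on the minus strand for Tpm1, both of mm10. The capitals mark the 7 of 60 bases that differ, and the longest identical run was 35 bases.
Tpm2: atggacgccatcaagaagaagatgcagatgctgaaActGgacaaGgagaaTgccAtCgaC
Tpm1: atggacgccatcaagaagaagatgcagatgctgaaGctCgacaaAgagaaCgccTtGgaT

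The rod photoreceptor gene Gngt1, a G protein gamma gene beside Gng11 on chromosome 6, was compared with Gng11 in the same way. In the stretch of their coding sequences around the longest identical run, 13 bases, 16 of 60 bases differed, marked in capitals; Gng11 is read at chr6:4004336-4004395 and Gngt1 at chr6:3994244-3994303, both on the plus strand.
Gng11: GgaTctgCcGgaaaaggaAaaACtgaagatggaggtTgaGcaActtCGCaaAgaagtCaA
Gngt1: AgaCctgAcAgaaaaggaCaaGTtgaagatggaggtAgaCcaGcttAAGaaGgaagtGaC

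Over all annotated transcripts, none of the 870 words of 50 bases in Gng11 and none of the 3087 in Tpm2 occurred in a transcript of another gene. Of the 9879 words in Tln1, 311 (3.15%) occurred, and each of them lay on the opposite strand in Creb3, the gene that overlaps the start of Tln1 by 360 bases. The sources used here do not say whether strand was used in counting, so reads from that overlap cannot be told apart; the row of Creb3 summed to 7453 counts over the 11 libraries and that of Tln1 to 364203.

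Totals per library ran from 2889205 to 20774889 counts. The row named Olfr648, an olfactory receptor, was very uneven: 4 colorectal cancer and 2 normal libraries gave it 7969078 to 17324370 counts each, the remaining 5 only 3247 to 5150. The counts outside Olfr648 came to 2885958 to 7033966 per library. Levels below are counts scaled by TMM factors, a normalisation that sets the bulk of genes equal between libraries, and are given as CPM, the rate of counts per scaled library. The 3 genes had 13040 to 40633 (Gng11), 19210 to 58089 (Tln1) and 337 to 1381 (Tpm2) counts per library.

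Many gene names in these files have no counts where some are due, and this bears on what a row can be taken for. Among all 21294 protein-coding rows with a single position, 42.2% were at 0 in all 11 libraries, among them Actb and Tmsb4x, an actin and an actin-binding gene that nearly all cells use. Around the 3 genes zeros were scarcer. Within 500 kb of Tpm2 and Tln1, 5 of 35 other protein-coding rows were at 0 and 24 had at least 100 counts, and the 6 olfactory receptor rows there, genes that blood cells should lack, had 0 to 14 counts. Within 500 kb of Gng11, 0 of 6 such rows were at 0 and 3 had at least 100 counts. It was not tested whether each row measures the gene of its name.

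Gng11 was among the most abundant rows of these libraries, at rank 25 of 9565 tested rows by CPM and at rank 15 of 9253 rows per kilobase of exon. Per kilobase the order of the mean levels was Gng11 (3086 CPM per kb), Tln1 (385) and Tpm2 (24.7), and the gaps between neighbours in that order were far wider than the spread within either group. Tln1 ranked 17 and Tpm2 808 by CPM, uncorrected for length.

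In normal serum Gng11 stood at 2904 CPM in the lowest library, 3168 at the median and 4779 in the highest. In colorectal cancer it stood at 2628, 2444, 1645, 1562 and 2625 CPM in replicates 1, 2, 3, 4 and 6. The groups did not overlap: each colorectal cancer library lay under each normal one, with replicates 3 and 4 the lowest and normal replicate 6 apart at the top. Groups parted in this direction, all of one group under all of the other, in 2.1% of all tested rows, and in either direction in 3.64%.

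The mean level of Gng11 was 3382 ± 702 CPM in normal and 2181 ± 533 in colorectal cancer serum (SD, n = 6 and 5). The log2 fold change was -0.63 (SE 0.17, approximate 95% interval -1.03 to -0.24). It did not pass edgeR's quasi-likelihood test across all rows (Benjamini-Hochberg adjusted p = 0.0982), while DESeq2 on the same rows called it lower (log2 fold change -0.64, adjusted p = 0.0138). Scaling by totals alone, after leaving out Olfr648, gave a log2 fold change of -0.22 (adjusted p = 0.355 by edgeR) and moved the median of all rows from 0.04 to 0.43. As a plain share of the counts outside Olfr648, Gng11 made up 0.495% to 0.731% in normal and 0.350% to 0.599% in colorectal cancer libraries, and on that scale the groups overlapped.

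Tln1 stood at 3485 CPM in the lowest normal library, 3839 at the median and 4538 in the highest. The colorectal cancer libraries held 4033, 3494, 3056, 3500 and 4059 CPM in replicates 1, 2, 3, 4 and 6. Here the groups overlapped, and only replicate 3 of colorectal cancer lay under the whole normal range.

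The mean of Tln1 was 3891 ± 405 CPM in normal and 3628 ± 422 in colorectal cancer serum. Its log2 fold change of -0.10 (SE 0.10, approximate 95% interval -0.32 to 0.12) did not pass (edgeR, adjusted p = 0.835). The sign depended on the scaling: with Olfr648 left out and totals alone it was 0.31 (adjusted p = 0.0401), under the 0.43 by which the median row was then higher.

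Tpm2 stood at 57.1 CPM in the lowest normal library, 64.3 at the median and 129.9 in the highest, which was replicate 6. The colorectal cancer libraries held 80.2, 83.1, 67.6, 46.4 and 64.4 CPM in replicates 1, 2, 3, 4 and 6. The groups overlapped widely, and the other 5 normal libraries lay between 57.1 and 70.1 CPM.

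The mean of Tpm2 was 74.8 ± 27.3 CPM in normal and 68.3 ± 14.6 in colorectal cancer serum, with a log2 fold change of -0.13 (SE 0.22, approximate 95% interval -0.62 to 0.36; edgeR, adjusted p = 0.916). Without normal replicate 6 it was 0.10, with Olfr648 left out and totals alone 0.29, and with the Olfr648 division as a covariate 0.01, so no direction can be given.

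**Figure D1:**
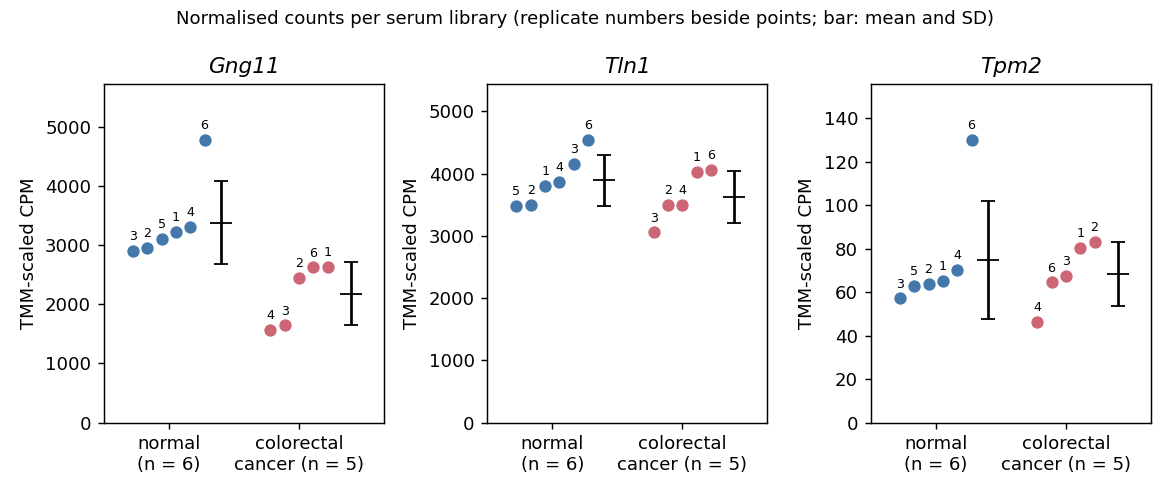
TMM-scaled CPM (vertical axis, from 0) of Gng11, Tln1 and Tpm2 in each library, with the replicate number above each point and the mean and SD as a bar. The 5 colorectal cancer libraries lie under all 6 normal ones for Gng11 and overlap them for Tln1 and Tpm2, and normal replicate 6 is highest in each panel.

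A ratio of 2 genes counted in the same library does not depend on how libraries are scaled, so the 3 ratios were tested on their own (two-sided exact permutation tests over 462 splits, adjusted over 3 ratios). The ratio of Gng11 to Tln1 counts was 0.699, 0.852 and 1.05 in the lowest, median and highest normal library. In colorectal cancer it was 0.652, 0.699, 0.538, 0.446 and 0.647 in replicates 1, 2, 3, 4 and 6. Colorectal cancer replicate 2 and normal replicate 3 met at 0.699, and otherwise each colorectal cancer library was under each normal one.

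The Gng11 to Tln1 ratio fell in colorectal cancer by 0.55 on the log2 scale, which is a fold of 0.685 (permutation 95% interval 0.555 to 0.841). The difference passed the test (exact permutation p = 0.00866, adjusted p = 0.0130, smallest p the test allows 0.00216). The log2 ratio ran from -0.517 to 0.075 in normal and from -1.164 to -0.516 in colorectal cancer libraries.

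The Gng11 to Tpm2 ratio fell as well. It was 36.8, 48.2 and 50.8 in the lowest, median and highest normal library, and 32.7, 29.4, 24.3, 33.7 and 40.7 in colorectal cancer replicates 1, 2, 3, 4 and 6. Only replicate 6 of colorectal cancer lay above the lowest normal library, which was normal replicate 6. The difference was -0.55 on the log2 scale, a fold of 0.683 (permutation 95% interval 0.555 to 0.835; exact permutation p = 0.00866, adjusted p = 0.0130).

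Tpm2 and Tln1, the chromosome 4 neighbours, kept much the same mean proportion in the 2 groups. Their ratio was 0.0190 ± 0.00502 in normal and 0.0190 ± 0.00437 in colorectal cancer serum (exact permutation p = 0.983). The permutation 95% interval of the fold, 0.714 to 1.38, leaves room for a moderate difference either way.

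High Olfr648 counts were commoner in colorectal cancer libraries, so values within that division stand beside the pooled ones. Among the 6 libraries with high counts, the Gng11 to Tln1 ratio averaged 0.773 in 2 normal and 0.611 in 4 colorectal cancer libraries, and these overlapped at 0.699. Among the other 5, the 4 normal libraries ranged from 0.848 to 1.05 and the single colorectal cancer library had 0.538. With libraries permuted only within the division, a choice made after the data were seen, the log2 difference was -0.50 (exact permutation p = 0.0267 over 75 arrangements, adjusted p = 0.0400). For Gng11 to Tpm2 it was -0.66 (exact permutation p = 0.0133, the smallest that 75 arrangements allow, adjusted p = 0.0400).

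**Figure D2:**
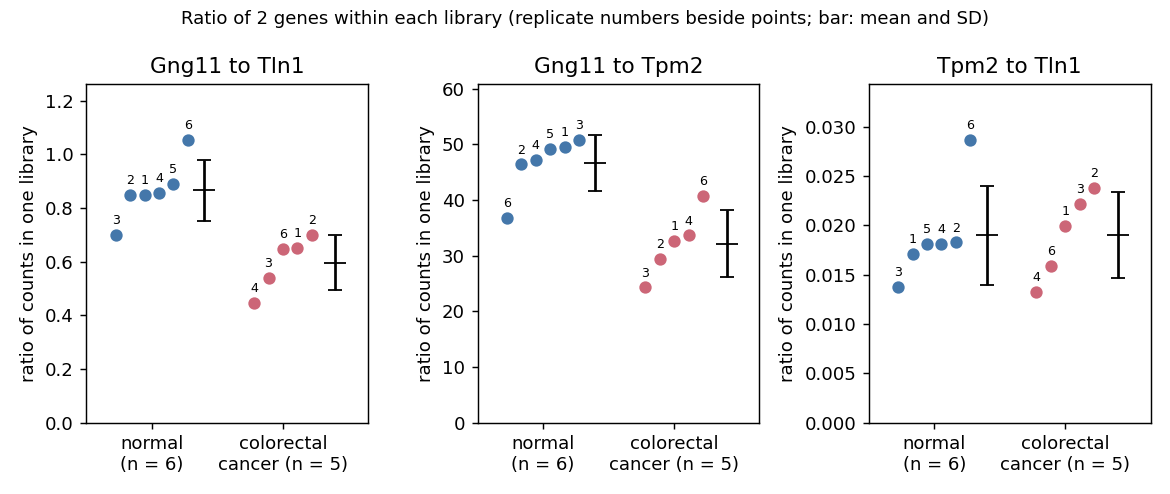
Ratio of the counts of 2 genes within each library (vertical axes, from 0), with replicate numbers and the mean and SD. Both ratios with Gng11 on top are lower in colorectal cancer, while Tpm2 to Tln1 is 0.0190 on average in both groups.

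The 3 genes were next compared from library to library on log2(CPM + 1). Over 11 libraries Gng11 and Tln1 had a Pearson r of 0.72 (permutation p = 0.0128, adjusted p = 0.0383 over 3 pairs) but a Spearman rho of 0.37 (permutation p = 0.259, adjusted p = 0.523). Without colorectal cancer replicates 3 and 4, the libraries farthest from the median of Gng11, r was 0.54 (permutation p = 0.131), and with libraries scaled by totals alone 0.08 (permutation p = 0.837). With group means removed it was 0.75 (permutation p = 0.00895, adjusted p = 0.0134). Over the 6 normal libraries alone r was 0.72 and rho 0.37 (exact permutation p = 0.189 for r, adjusted p = 0.217), and without normal replicate 6 r was -0.05. The pooled relation therefore did not hold without 2 libraries or under the other scaling. It passed with group means removed, but not within normal serum alone.

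Gng11 and Tpm2 moved together within normal serum. Over the 6 normal libraries r was 0.99 and rho 0.94 (exact permutation p = 0.00556 for r, adjusted p = 0.0167 over 3 pairs), and over the 5 without normal replicate 6 r was 0.87. Pooled over 11 libraries r was 0.64 (permutation p = 0.0377, adjusted p = 0.0565) and rho 0.30 (permutation p = 0.371, adjusted p = 0.523). With group means removed r was 0.82 (permutation p = 0.00083, adjusted p = 0.00249), and without normal replicate 6 the pooled r was 0.35. Without colorectal cancer replicates 3 and 4 the pooled r was 0.61. With libraries scaled by totals alone the pooled r was 0.43 (permutation p = 0.186, adjusted p = 0.326). The relation within normal serum was not tested under that scaling. For Tln1 and Tpm2 the pooled r was 0.48 (permutation p = 0.131, adjusted p = 0.131) and rho 0.22 (permutation p = 0.523, adjusted p = 0.523), and without colorectal cancer replicate 3 and normal replicate 6 r was 0.13.

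**Figure D3:**
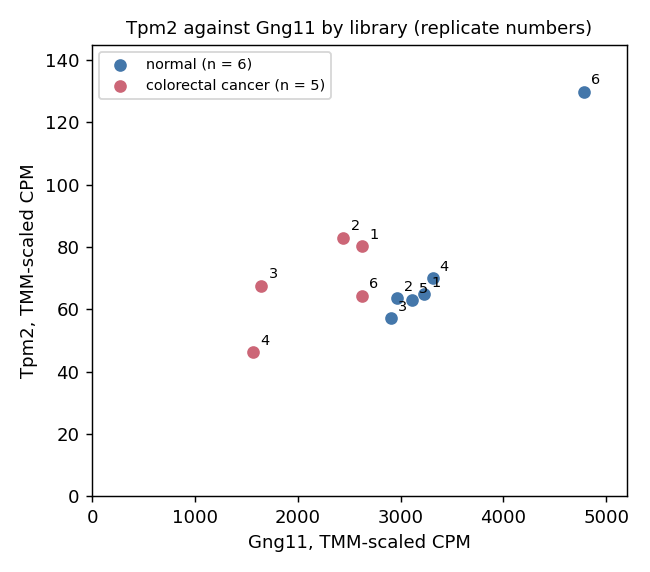
Tpm2 (vertical axis) against Gng11 (horizontal axis), both in TMM-scaled CPM from 0, with 1 point per library and its replicate number. The normal libraries lie along a line up to replicate 6 at 4779 and 129.9 CPM, and the colorectal cancer libraries lie to the left of them at like levels of Tpm2.

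The rows most like each gene were found by Pearson r over the 11 libraries among abundant rows (a mean of at least 50 CPM), as a description that shares libraries and group differences. For Gng11 they were Alox15 (r = 0.99), Dap (0.99), Clec1a (0.97) and mt-Rnr2 (0.97). Alox15 encodes a lipoxygenase, Dap a small protein linked to cell death and autophagy, Clec1a a C-type lectin receptor and mt-Rnr2 the large ribosomal RNA of mitochondria. Dap fell in colorectal cancer (980 ± 172 to 601 ± 130 CPM, adjusted p = 0.0352 by edgeR), and mt-Rnr2 fell too (62017 ± 12358 to 35276 ± 6959 CPM, adjusted p = 0.0168 by edgeR). The call of mt-Rnr2 was lost under 4 and that of Dap under 10 of 20 other settings. Alox15 and Clec1a, like Gng11, did not overlap between the groups and did not pass (adjusted p = 0.0942 and 0.185 by edgeR). DESeq2 called all 4 lower, as it did Gng11 and 2.66% of all tested rows. The 4 were picked for following Gng11, its group difference included, so their calls are no separate evidence and cannot be set against that share.

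The rows nearest in pattern to Tln1 were less close: Rtn3 (r = 0.85), Polr2h (0.85), Map4k2 (0.82) and Slc44a1 (0.81). EdgeR and DESeq2 called 0 of them. At an unadjusted p under 0.05, 3 of the 4 were lower, where 5.65% of all tested rows were. Slc44a1 did not overlap between the groups and was lower, as 2.1% of all tested rows were. For Tpm2 the nearest rows were Skiv2l (0.87), Acot6 (0.85), S100pbp (0.78) and Brap (0.77). EdgeR and DESeq2 called 0 of these, and 0 had an unadjusted p under 0.05, where 11.4% of all tested rows did. The rows named here were picked for following Tln1 or Tpm2 over the same libraries, group differences included. Their counts and the non-overlap of Slc44a1 are therefore no separate evidence and cannot be set against those shares.

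Chromosomal neighbours had other levels than the 3 genes. Beside Gng11, the nearest tested rows on either side with at least 1 CPM were Vps50, an endosomal trafficking gene, at 42.9 ± 6.51 CPM in normal serum and Bet1, a Golgi SNARE, at 32.4 ± 12.2, far below Gng11. Beside Tln1, Creb3, Gba2 and Rgp1 had 73.7 ± 11.04, 138 ± 10.8 and 131 ± 18.3 CPM in normal serum. Beside Tpm2, Car9, a carbonic anhydrase, had 1.15 ± 1.04. Of the 12 tested neighbours edgeR and DESeq2 called 0, where edgeR called 2.02% and DESeq2 4.46% of all tested rows. An unadjusted p under 0.05 was found for 0 of the 12, where 11.4% of all tested rows had one.

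The platelet and megakaryocyte list of 32 genes had 31 rows in the files. Of these 15 were at 0 in all libraries, among them the defining markers Pf4, Ppbp, Gp9, Gp1ba and Tubb1, and 9 could be tested. EdgeR's test called 1 of the 9 lower and 0 higher, where it called 1.45% of all tested rows lower and 0.565% higher. At an unadjusted p under 0.05, 4 of the 9 were lower and 0 higher, against 5.65% and 5.72% of all tested rows. DESeq2 called 3 of the 9 lower and 0 higher, against 2.66% and 1.81% of all tested rows. The median log2 fold change of the 9 was -0.58 and that of all tested rows 0.04. Of the 9, 7 were negative, and the other 2 were Selp (0.007) and F5 (0.16).

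Itga2b, the alpha chain of the platelet fibrinogen receptor that talin activates, was the one called (874 ± 178 to 379 ± 148 CPM, a log2 fold change of -1.21 with an SE of 0.26 and, by edgeR, an adjusted p of 0.0374). Its call was lost under 10 of 20 other settings. It held 355, 175, 570.8, 459 and 334 CPM in colorectal cancer replicates 1, 2, 3, 4 and 6, each under the lowest normal library at 599. Replicate 3, which was among the lowest for Gng11, was the highest of its group for Itga2b, so the 2 rows did not order the colorectal cancer libraries alike. Itgb3, the beta chain of the same receptor, had a mean of 0.84 CPM and 77 counts in all.

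Gp6 and Trpc6 were singled out after their values were seen. Gp6, the platelet collagen receptor, had 176 ± 49.5 CPM in normal and 109 ± 28.9 in colorectal cancer serum (a log2 fold change of -0.69 with an SE of 0.21, edgeR's adjusted p = 0.149). Trpc6, a calcium channel of platelets and other cells, had 19.3 ± 3.41 and 12.3 ± 2.16 (a log2 fold change of -0.64 with an SE of 0.17, edgeR's adjusted p = 0.0906). Both had their lowest value in colorectal cancer replicate 3 and their highest in normal replicate 6, and DESeq2 called both lower. Colorectal cancer libraries overlapped normal ones in both.

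**Figure D4:**
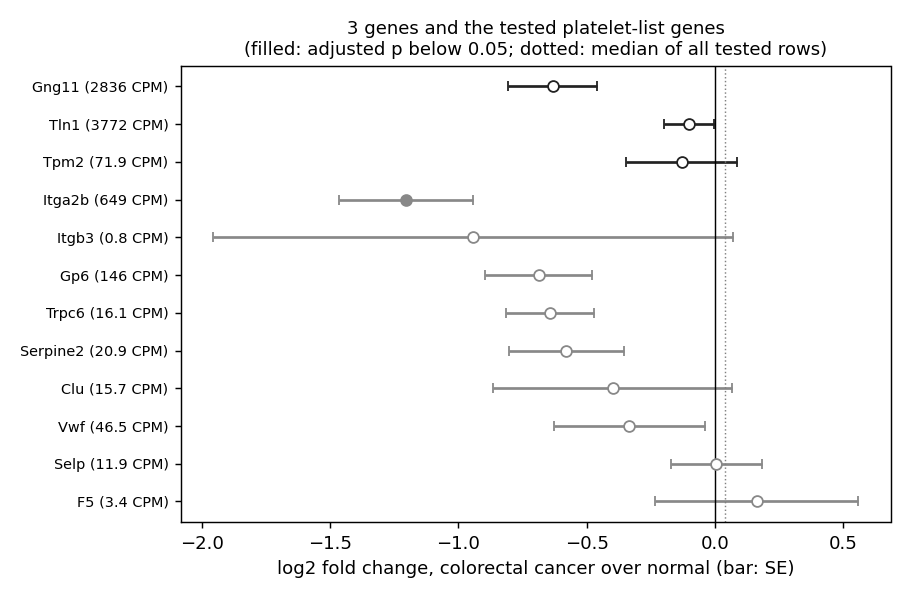
Log2 fold change of colorectal cancer over normal serum with its SE (horizontal axis) for Gng11, Tln1 and Tpm2 and the 9 tested genes of the platelet list, with the mean CPM of each in brackets. The filled point, Itga2b at -1.21, is the one past the threshold, and Gng11, Gp6 and Trpc6 lie between -0.69 and -0.63.

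Among partners of Gng11, 34 G protein subunits and platelet receptors were listed, of which 14 could be tested, 8 were at 0 and edgeR called 0, where it called 2.02% of all tested rows. At an unadjusted p under 0.05 there were 2 of 14, near the 11.4% of all tested rows. DESeq2 called 1 of 14, Plcb2, the phospholipase that Gq and beta-gamma subunits activate, and 4.46% of all tested rows. Their median log2 fold change was -0.11. The most abundant were the beta subunits Gnb2 (256 ± 51.8 CPM in normal and 273 ± 51.5 in colorectal cancer serum) and Gnb3 (185 ± 73.5 and 167 ± 69.2). Gng10, another gamma subunit, had 107 ± 23.8 and 104 ± 10.6 CPM, and Gngt1 summed to 10 counts.

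Among partners of Tln1, 20 of 33 integrin activation genes could be tested, and 1 fell, Itga2b, which is also on the platelet list, while 0 rose (1 higher at an unadjusted p under 0.05, 0 by DESeq2). Of all tested rows, edgeR called 1.45% lower and 0.565% higher. DESeq2 called 1.81% higher, and 5.72% were higher at an unadjusted p under 0.05, so these counts are near the background. The median log2 fold change was -0.04. Without overlap between the groups, 1 gene of this list was lower, Itga2b, and 1 higher, Parvb, where 3.64% of all tested rows parted in either direction. Parvb held 0 to 23.5 CPM in normal and 25.4 to 33.7 in colorectal cancer serum, and its normal libraries other than replicate 6 were at 0. Its log2 fold change of 2.92 (SE 1.34) did not pass (edgeR, adjusted p = 0.457). It was singled out after its values were seen. Pip5k1c, the kinase that makes the lipid that opens talin, had 102 ± 6.16 CPM in normal and 109 ± 5.79 in colorectal cancer serum. Fermt3, the kindlin of blood cells that works with talin, had 37.2 ± 11.7 and 36.7 ± 4.37. Tln2, the other talin gene, reached a mean of 0.196 CPM. Of the integrin beta chains listed, Itgb3 had a mean of 0.84 CPM, Itgb1 was at 0 and Itgb2 summed to 6 counts.

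Among partners of Tpm2, 22 of 34 tropomyosin and actin filament genes could be tested, and 2 fell while 0 rose, where edgeR called 1.45% of all tested rows lower and 0.565% higher. At an unadjusted p under 0.05, 1 of the 22 was higher, where 5.72% of all tested rows were. DESeq2 called 0 higher, and 1.81% of all tested rows. The 2 that fell were Tmod1 (188 ± 53.7 to 58.7 ± 24.4 CPM, adjusted p = 0.0196 by edgeR) and Tmod4 (71.05 ± 11.9 to 34.03 ± 8.38 CPM, adjusted p = 0.00665 by edgeR; these calls were lost under 6 and 1 of 20 other settings), which encode caps for the end of tropomyosin-coated actin filaments, in red cells and in muscle. The median log2 fold change of the 22 was 0.08. Of the other tropomyosins, Tpm3 had 35.4 ± 6.71 and 30.0 ± 10.9 CPM, Tpm1 a mean of 1.03 and Tpm4 of 0.0226.

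Some genes of other blood cells also passed the test, by which 1.45% of all tested rows were lower and 0.565% higher; with 3 to 9 genes tested in most of these lists, the counts are a description. The summed level of the erythroid list was 538 to 930 CPM in normal and 128 to 334 in colorectal cancer serum, with 3 of 9 tested genes lower (Hemgn, Tmod1 and Tspan33) and 0 higher; Alas2 and Hbb-bs were at 0. The neutrophil list summed to 104 to 399 CPM in normal and 436 to 757 in colorectal cancer serum, with 1 of 3 tested genes higher, Mxd1, a call lost under 10 of 20 other settings, and 0 lower; S100a8 and S100a9 were at 0. The T cell list summed to 825 to 1030 and 491 to 705 CPM, with 1 of 7 lower, Cd3e. The B cell list summed to 964 to 1481 and 1086 to 1199 CPM, with 0 of 6 called by edgeR or DESeq2. In either direction edgeR called 2.02% and DESeq2 4.46% of all tested rows. Monocyte and macrophage genes summed to 19.3 to 29.6 and 29.0 to 38.3 CPM, with 1 of 4 higher, Adgre4. Single rows made up much of some of these sums, as Tspan33 did for the erythroid list. Cd3e alone held 279 to 501 CPM in normal and 153 to 275 in colorectal cancer serum. Such a sum does not stand for every gene of its list. The part of these other blood cells in the Gng11 and Tln1 results was not tested.

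The platelet list itself summed to 870 to 1414 CPM in normal and 456 to 709 in colorectal cancer serum, and its highest library was normal replicate 6, which also had the highest sum of T cell genes. Itga2b made up most of this sum, and without it the list came to 249 to 433 CPM in normal and 138 to 281 in colorectal cancer serum, ranges that overlap. Smooth muscle and endothelial genes, which could bring in Tpm2, summed to 19.5 to 48.9 CPM in normal and 30.3 to 39.2 in colorectal cancer serum, with Myh11 and Des at 0, 0 of 4 tested genes called by edgeR or DESeq2 or at an unadjusted p under 0.05, and normal replicate 6 at 34.6. NK cell genes summed to 17.2 to 25.5 and 11.6 to 35.6 CPM, with 0 of 1 called by either tool or at an unadjusted p under 0.05. Of all tested rows edgeR called 2.02% and DESeq2 4.46%, and 11.4% had an unadjusted p under 0.05. With so few genes tested, counts of 0 are near those shares.

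**Figure D5:**
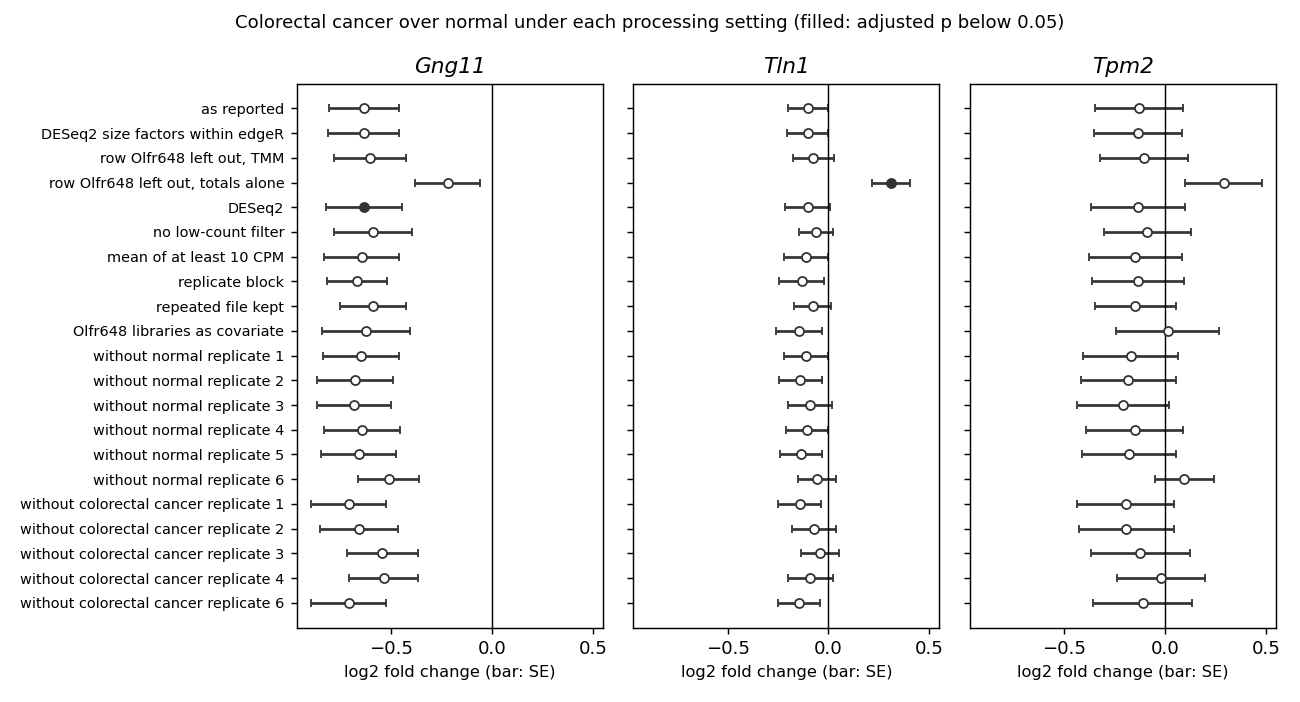
Log2 fold change of colorectal cancer over normal serum with its SE (horizontal axes) for Gng11, Tln1 and Tpm2 under each processing setting (rows), filled where the adjusted p was below 0.05. Gng11 stays negative throughout, from -0.71 to -0.22, while Tln1 and Tpm2 lie near 0 and turn positive when libraries are scaled by totals without Olfr648, Tpm2 also without normal replicate 6 and with the Olfr648 covariate.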

How the data were processed

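RNA was extracted with TRIzol and made into stranded total RNA libraries, per the labels' protocols. The deposited files hold whole-number counts per gene symbol, taken as raw read counts from their values. Trim Galore, HISAT2, StringTie and mm10 are named in the submitters' processing notes; which annotation was used, how reads were counted and whether by strand is not stated there. Of 53546 rows 0 name no gene, and 49972 matched a single GENCODE M21 position. The members and gene lists were chosen with earlier results of these data known.

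Rows were filtered with filterByExpr, TMM-scaled and tested with edgeR 4.0.16 (glmQLFit robust, glmQLFTest; R 4.3.3), group as the only term, Benjamini-Hochberg at 0.05 over 9565 rows. Intervals of fold changes are approximate, from the SE. Ratios used counts plus 0.5 and two-sided exact permutation tests; permutation intervals hold the shifts not rejected at 0.05. Correlations used 100000 resamples, or all orders under 10 libraries. DESeq2 1.42.0, other scalings and filters, a replicate block, an Olfr648 covariate and leaving out each library were alternatives. Genes named are the members, the 4 rows most like each, up to 3 tested neighbours a side, and from each list up to 2 called in each direction or the 2 most abundant; others mark a role or were picked after their values were seen. Procedures were tested on simulated data. Tables and plots were made with pandas 2.3.3, Matplotlib 3.10.9 and SciPy 1.17.1 under Python 3.11.15.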

Additional observations from a re-analysis of the deposited data

Results flagged for a closer look

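Normal replicate 6 stood apart from the other 5 normal libraries in several rows, each time above them. It held 4779 CPM of Gng11, where the next highest normal library had 3310, and 129.9 CPM of Tpm2, where the next had 70.1. It also held 272 CPM of Gp6 (next 177), 295 of Alox15 (next 234), 1327 of Dap (next 949), 399 of Clec1a (next 263) and 85656 of mt-Rnr2 (next 65015). Its log2 ratio of Gng11 to Tpm2 was 5.20, the lowest of its group, where the next lowest was 5.54. Itga2b was not high in it: at 981 CPM it was the third of 6. Alox15, Dap, Clec1a and mt-Rnr2 had been picked for following Gng11, so their standing in this library is no separate evidence.

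In colorectal cancer, Trpc6 was at 8.58 CPM in replicate 3, under the next lowest library at 12.3. In all, 36 groups of values were looked at and 9 had such an isolated end value, 8 of them in normal replicate 6. Chance isolates an end value in about 1 of 20 independent groups, and these groups are not independent, since they share libraries and some rows were picked for following Gng11, so the 2 counts cannot be set against each other.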

How the results depend on the processing

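Gng11 was lower in colorectal cancer under all 20 alternatives run, with log2 fold changes from -0.71 to -0.22, and passed in 1 of them, DESeq2 (-0.64). Without a single library it ranged from -0.71 to -0.51. Tln1 (0.31) and Tpm2 (0.29) changed sign with Olfr648 left out and totals alone, and Tpm2 with the Olfr648 covariate (0.014); without a single library Tln1 ranged from -0.15 to -0.04 and Tpm2 from -0.21 to 0.10, positive only without normal replicate 6. The replicate number only names the samples: same-numbered libraries correlated at -0.07 to 0.03 in their deviations, below 0.1 in all 5 pairs, and 1 of 5 matched its own number best. With the replicate block Gng11 was at -0.67, Tln1 at -0.13 and Tpm2 at -0.13, none called, and 65 rows were called against 193 without it.

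The ratios of Gng11 to Tln1 and to Tpm2 kept their direction and stayed past the threshold under all 14 alternatives each. The Tpm2 to Tln1 difference, 0.00 on the log2 scale, turned to -0.034 with the repeated file kept and ranged from -0.085 to 0.13 without single libraries; it passed under none. The correlation of Gng11 with Tln1 no longer passed with totals alone (0.076) or without the 2 farthest libraries (0.54) and passed with group means removed (0.75). That of Gng11 with Tpm2, which did not pass as reported, passed with group means removed (0.82). It did not pass with totals alone (0.43) or without the 2 farthest libraries (0.61).

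Over all rows 193 were called, 54 higher and 139 lower. The count was 1483 with Olfr648 left out and totals alone (1383 higher, 100 lower), 427 with DESeq2, 299 with the repeated file kept and 81 with the Olfr648 covariate. It ranged from 109 to 206 without single libraries, the lowest without colorectal cancer replicate 4. Leaving out normal replicate 2 gave 124; of the colorectal cancer group, replicate 1 gave 110, replicate 2 gave 125 and replicate 6 gave 111.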

Other observations

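Clec1a, whose row followed Gng11 with an r of 0.97 over 11 libraries, starts at 129424772 on chromosome 6. Its neighbour Clec1b, the platelet receptor for podoplanin, had 41 counts in all. The row of Clec1a held 270 ± 64.1 CPM in normal and 183 ± 42.7 in colorectal cancer serum. Both genes were singled out after their values were seen.

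Tspan33, a tetraspanin of the red cell lineage, had 469 ± 104 CPM in normal and 161 ± 50.4 in colorectal cancer serum (adjusted p = 0.00603 by edgeR), and its highest library was normal replicate 6 at 615. Hemgn went from 51.0 ± 10.7 to 15.3 ± 5.82 CPM. In normal replicate 6, the library with the most Gng11, Hemgn stood at 55.3 CPM, the third of 6.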
